A study of Mus musculus with 6 samples.

Results

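The genes described here are 9 genes that white fat cells use, Adipoq, Plin1, Cfd, Retn, Lep, Cidec, Fabp4, Pck1 and Pparg, measured in whole gastrocnemius (Gas) muscle of wild-type (WT) and miR-92b knockout (M92KO) mice. They were found by symbol in a table of 34714 gene symbols, which held all 9. A filter on low counts kept 15788 genes for testing and with them 8 of the 9 fat cell genes. Leptin (Lep) did not pass it.

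The M92KO mice lacked miR-92b in the whole body (miR-92b-/-, made on C57BL/6JGpt), so that their fat tissue lacked the microRNA as well as their muscle. The WT mice were C57BL/6 mice of the same age and were not stated to be littermates. Per the study's methods and the labels, the mice were males of 8 weeks, untreated and fed a standard diet. Each genotype had 3 libraries numbered as replicates. No label said whether each came from a separate mouse, and p-values measure the spread between these libraries.

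A white fat cell stores triglyceride in a large droplet and releases hormones into the blood. The nuclear receptor encoded by Pparg switches on many genes of the mature cell, among them those for the droplet coat, for fatty acid handling and for the hormones. Fat cells lie between the bundles and in the surrounding sheath of a hind limb muscle, so that a whole muscle sample holds some of them. In such a bulk sample, fewer fat cells and less RNA per fat cell cannot be told apart.

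The muscle identity of the libraries was plain in their counts. The 11 muscle fibre genes of a marker list, such as Acta1 and Ckm, together took between 139202 and 153992 CPM. CPM are counts scaled to the size of the library, as normalised by the TMM method. Of 6 skin genes, Krt14 and Krt1 were at 0 in every library. The 6 skin genes together summed to between 3.39 and 5.53 CPM, and only Krt10 of them passed the filter on low counts. Library totals lay between 33160508 and 48209846 counts, and a floor of 3 counts came to between 0.0629 and 0.0916 CPM. Floors and intervals of counts cover counting error only. With 3 libraries against 3, an exact two-sided permutation test of a single gene cannot give a p-value below 0.1.

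The first question about these genes was whether a transcript of any of them could pair with the deleted microRNA. A microRNA arm pairs with messenger RNAs mainly through its seed, bases 2 to 8, which is in capitals in the mature sequences from RefSeq (GRCm38.p6). The 3p arm lies at chr3:89227126-89227147 and the 5p arm at chr3:89227165-89227188, both on the minus strand.
mmu-miR-92b-3p: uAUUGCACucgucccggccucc
mmu-miR-92b-5p: aGGGACGGgacguggugcaguguu
The shortest match searched was 6 bases, TGCAAT for the 3p arm and CGTCCC for the 5p arm, in the longest annotated 3′-UTR of each gene (GENCODE M21). None of the 9 fat cell genes held such a match for either arm. Over 20952 genes with an annotated 3′-UTR, 24.7% held at least this match for the 3p arm and 7.41% for the 5p arm. The 3′-UTRs searched ran from 69 bases in Cfd and 204 bases in Pparg to 1203 bases in Plin1 and 2695 bases in Lep, against a median of 966 bases over all those genes. A match or its lack is a description of these letters and measures no binding. No count of miR-92b itself was analysed here.

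The other sequence that bears on a shared pattern is the stretch just before each gene's start. RefSeq windows of 300 bases, from 250 bases before to 50 bases after a start, were found for 8 of the 9 genes, with 11 windows in all. Fabp4 had none. On both strands, the C/EBP motif TTGCNNAA was present in windows of Plin1, Lep, Cidec and Pparg and in 10.8% of all 32851 windows. The nuclear receptor motif AGGTCA was present only in windows of Pparg and in 16.3% of all windows. Sites outside these windows or with other letters were not searched. The CCAAT motif was present in windows of Adipoq and Pparg and in 37.4% of all windows, and TATAAA in a window of Pparg and in 13.6% of all windows. The 250 bases before the start are shown for Adipoq, as the hormone against which the other genes are set below, for Plin1, which has a pair of C/EBP motifs, and for the most downstream of the 3 starts of Pparg, which has C/EBP motifs 215 and 16 bases before the start. The capitals mark the motifs, in Adipoq those of CCAAT on either strand and in Plin1 those of C/EBP. In Pparg they mark both kinds. The stretches are chr16:23146286-23146535 on the plus strand, chr7:79732777-79733026 on the minus strand and chr6:115421816-115422065 on the plus strand.
Adipoq: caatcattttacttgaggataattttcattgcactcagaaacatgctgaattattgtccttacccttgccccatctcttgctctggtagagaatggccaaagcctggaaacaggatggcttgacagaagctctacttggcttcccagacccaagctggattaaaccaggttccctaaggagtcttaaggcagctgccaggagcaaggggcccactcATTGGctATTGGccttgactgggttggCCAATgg
Plin1: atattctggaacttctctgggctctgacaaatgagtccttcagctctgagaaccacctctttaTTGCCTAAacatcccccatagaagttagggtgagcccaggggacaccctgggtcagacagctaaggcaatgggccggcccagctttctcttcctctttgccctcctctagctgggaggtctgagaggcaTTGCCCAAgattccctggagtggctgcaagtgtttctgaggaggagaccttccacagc
Pparg: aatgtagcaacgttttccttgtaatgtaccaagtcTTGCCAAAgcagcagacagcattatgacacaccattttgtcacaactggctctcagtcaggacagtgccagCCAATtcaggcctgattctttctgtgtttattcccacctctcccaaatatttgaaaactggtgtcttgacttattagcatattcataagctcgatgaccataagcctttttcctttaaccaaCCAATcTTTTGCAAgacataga
No match overlapped one of another motif. The matches are a description of the windows and say nothing about which factor was bound in the muscle.

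The levels of the 9 genes differed widely when set per length (RPKM, CPM per kilobase of exons of coding transcripts). Fabp4 stood first at 362 ± 34.4 RPKM in WT and 373 ± 38.7 RPKM in M92KO muscle (SD, n = 3). Of 20607 coding genes matched by symbol, it held place 108. The values of the other 8 genes were far below it.

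Cfd came next at 5.72 ± 3.04 RPKM in WT and 10.3 ± 5.51 RPKM in M92KO muscle, followed by Pparg at 3.20 ± 0.870 and 2.20 ± 0.215 RPKM. Adipoq was at 0.680 ± 0.196 and 0.910 ± 0.506 RPKM. Pck1, Cidec and Retn followed with means over all libraries from 0.532 down to 0.346 RPKM, and Plin1 and Lep were last at 0.0806 and 0.0280 RPKM. The libraries of Fabp4, at 337 to 414 RPKM, did not overlap those of Cfd, at 3.23 to 16.5 RPKM. Those of Pparg, at 2.07 to 4.13 RPKM, did not overlap those of Adipoq, at 0.487 to 1.48 RPKM. All other neighbours in the order overlapped in their ranges over the libraries, so that their order is not fixed beyond that spread.

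**Figure D1:**
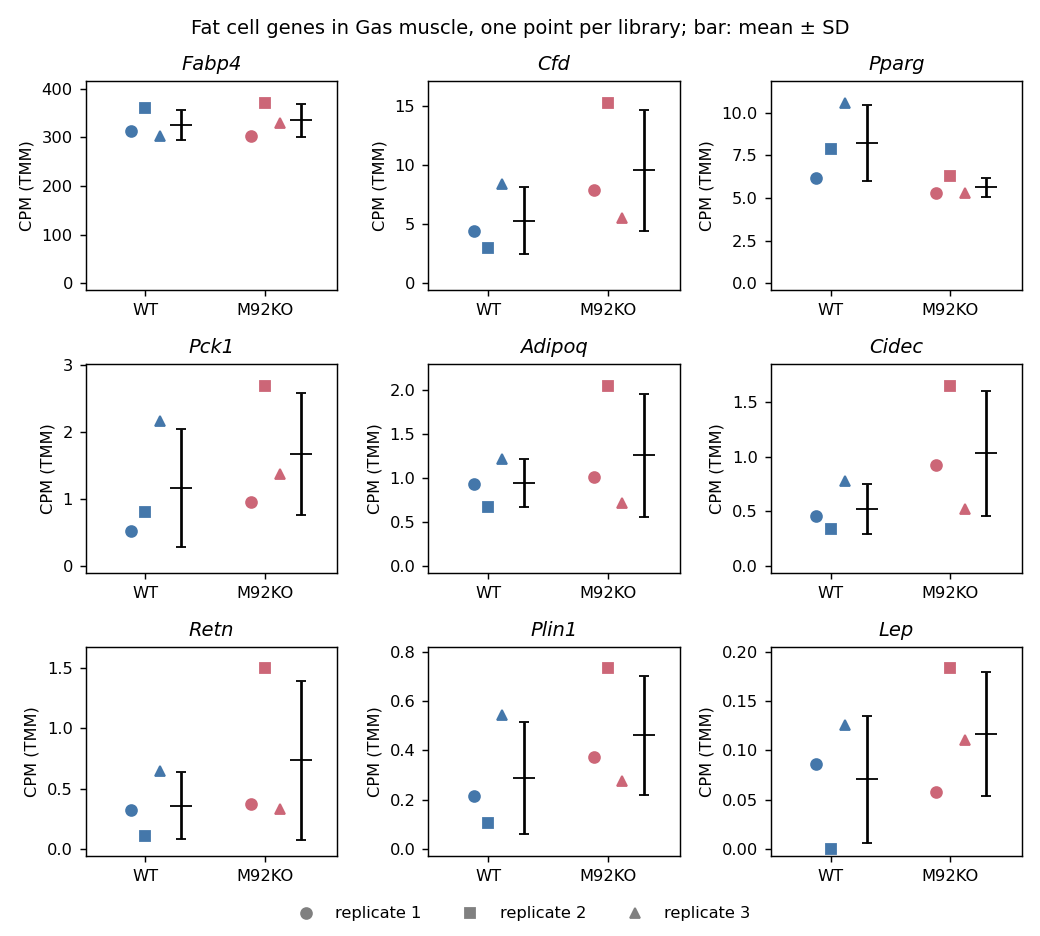
Level of each of the 9 genes in CPM with TMM-normalised library sizes (vertical axes, each from 0 and on its own scale) in the 3 WT and 3 M92KO libraries. Symbols give the replicate number and black bars the mean ± SD. M92KO replicate 2 is the highest library for 8 of the 9 genes, all except Pparg, beside 17.1% of the 15788 genes tested. The genotypes overlap for all 9.

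The hormones and secreted proteins were described first. Adipoq encodes adiponectin, a hormone made by mature fat cells (chr16:23146536-23158028, plus strand). WT libraries 1 to 3 had 0.931, 0.673 and 1.22 CPM of it, against 1.01, 2.05 and 0.716 CPM in M92KO libraries 1 to 3, from between 26 and 67 counts. M92KO replicate 2 was the highest and WT replicate 2 the lowest, and the M92KO values surrounded 2 of the 3 WT values. The mean was 0.940 ± 0.271 CPM in WT and 1.26 ± 0.699 CPM in M92KO muscle. That gave a log2 fold change of 0.40 ± 0.41 (SE, 95% interval -0.52 to 1.33), with an adjusted p-value of 0.744 by edgeR's quasi-likelihood test and an exact permutation p-value of 0.6. The 95% Poisson interval of M92KO replicate 2, 1.59 to 2.60 CPM, lay above that of WT replicate 2, 0.440 to 0.986 CPM. These libraries were picked as the extremes, and the intervals were not widened for that choice.

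Cfd encodes adipsin, the complement protease that fat cells secrete (chr10:79890853-79892655, plus strand). In the same order of libraries, its values were 4.44, 2.98 and 8.40 CPM in WT against 7.83, 15.2 and 5.51 CPM in M92KO muscle. The same libraries were at the ends as for Adipoq, and WT replicate 3 lay above 2 of the 3 M92KO libraries. The mean of 9.53 ± 5.08 CPM in M92KO muscle stood against 5.27 ± 2.81 CPM in WT muscle. The fitted log2 fold change was 0.84 ± 0.43 (SE, 95% interval -0.15 to 1.83). It did not pass the test, with an adjusted p-value of 0.487 by edgeR and an exact permutation p-value of 0.3.

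Retn encodes resistin, a small hormone of mouse fat cells (chr8:3655770-3660110, plus strand). It was at 0.325, 0.104 and 0.650 CPM in WT and at 0.374, 1.5 and 0.331 CPM in M92KO muscle, from between 4 and 49 counts. The value in M92KO replicate 2 was 14.5 times that in WT replicate 2, the widest span over libraries among the 8 genes tested, and the other M92KO libraries lay within the WT range. The log2 fold change of 0.97 ± 0.72 (SE, 95% interval -0.66 to 2.60) had an adjusted p-value of 0.645 by edgeR and an exact permutation p-value of 0.4.

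Lep encodes leptin, the hormone that signals fat stores to the brain (chr6:29060220-29073877, plus strand). The WT libraries had 4, 0 and 6 counts of it, against 2, 6 and 4 counts for M92KO. The 0 in WT replicate 2 allows a level of up to 0.0777 CPM by the floor of 3 counts, and only the counts of 4 and 6 were above the floor. The groups overlapped, with an exact permutation p-value of 0.6. Because leptin was removed by the filter on low counts, it has no fitted fold change here.

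Both droplet genes had the same libraries at their ends. Plin1 encodes perilipin 1, the coat protein of the large droplet (chr7:79720218-79732903, minus strand). It was at 0.216, 0.104 and 0.545 CPM in WT and at 0.374, 0.733 and 0.275 CPM in M92KO muscle, from between 4 and 26 counts. M92KO replicate 2 was highest and WT replicate 3 next. The log2 fold change was 0.62 ± 0.60 (SE, 95% interval -0.74 to 1.99), with an adjusted p-value of 0.727 by edgeR and an exact permutation p-value of 0.4.

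Cidec, which encodes a protein that fuses droplets (chr6:113424634-113435760, minus strand), was at 0.455, 0.337 and 0.775 CPM in WT and at 0.921, 1.65 and 0.523 CPM in M92KO muscle. Here 2 of the 3 M92KO libraries lay above all WT libraries, and M92KO replicate 3 lay within the WT range. The mean was 0.522 ± 0.227 CPM in WT and 1.03 ± 0.571 CPM in M92KO muscle. At a log2 fold change of 0.95 ± 0.47 (SE, 95% interval -0.11 to 2.02), it had an adjusted p-value of 0.463 by edgeR and an exact permutation p-value of 0.2.

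The genes of fatty acid handling and metabolism followed other orders of the libraries. Fabp4 encodes a fatty acid carrier of fat cells that capillary endothelial cells and macrophages also make (chr3:10204088-10208576, minus strand). It was at 312, 359 and 302 CPM in WT and at 302, 371 and 330 CPM in M92KO muscle, from 10486 counts or more in every library. The highest library was only 1.23 times the lowest, and both genotypes spanned almost the same range. The log2 fold change was 0.04 ± 0.10 (SE, 95% interval -0.18 to 0.27), with an adjusted p-value of 0.902 by edgeR and an exact permutation p-value of 0.7.

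Pck1 encodes the cytosolic phosphoenolpyruvate carboxykinase, which supplies glycerol for triglyceride in fat cells and glucose precursors in liver and kidney (chr2:173153048-173159273, plus strand). It was at 0.519, 0.803 and 2.16 CPM in WT and at 0.950, 2.69 and 1.38 CPM in M92KO muscle. M92KO replicate 2 and WT replicate 3 were again the highest, while WT replicate 1 was the lowest. Its log2 fold change was 0.51 ± 0.55 (SE, 95% interval -0.74 to 1.76), with an adjusted p-value of 0.763 by edgeR and an exact permutation p-value of 0.4.

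Pparg, the regulator of the group (chr6:115360951-115490399, plus strand), was the only member below WT on average. It was at 6.17, 7.84 and 10.6 CPM in WT and at 5.30, 6.26 and 5.32 CPM in M92KO muscle. The M92KO libraries lay close together at the low end, and M92KO replicate 2 lay just above WT replicate 1, so that the groups overlapped. The mean was 8.20 ± 2.23 CPM in WT and 5.62 ± 0.551 CPM in M92KO muscle. A log2 fold change of -0.55 ± 0.20 (SE, 95% interval -0.99 to -0.10) came with an unadjusted p-value under 0.05 but an adjusted p-value of 0.328 by edgeR, and the exact permutation p-value was 0.2. Leaving out WT replicate 3, M92KO replicate 1 or M92KO replicate 3 lifted the unadjusted p-value above 0.05, with a log2 fold change of -0.32 without WT replicate 3.

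Set against all genes, none of the 9 fat cell genes had genotypes that did not overlap, where 18.4% of the 15788 genes tested did, 8.77% with M92KO above WT and 9.58% with M92KO below. At an unadjusted p-value under 0.05, 1 of the 8 members tested was called, Pparg, where 12.4% of the genes tested were, 6.92% lower and 5.47% higher in M92KO muscle. After adjustment, 0 of the 15788 genes had a p-value under 0.05 by edgeR (0%), beside 1955 at an unadjusted p-value under 0.05 and 312 by DESeq2's Wald test after adjustment. Of the 8 members, 7 had a positive log2 fold change, beside 7891 of the 15788 genes tested. Without M92KO replicate 2, 3 of the 8 did. The median over the 8 members was 0.57, beside -8.07e-05 over all genes tested. It was -0.021 without M92KO replicate 2 and 1.34 without WT replicate 3.

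**Figure D2:**
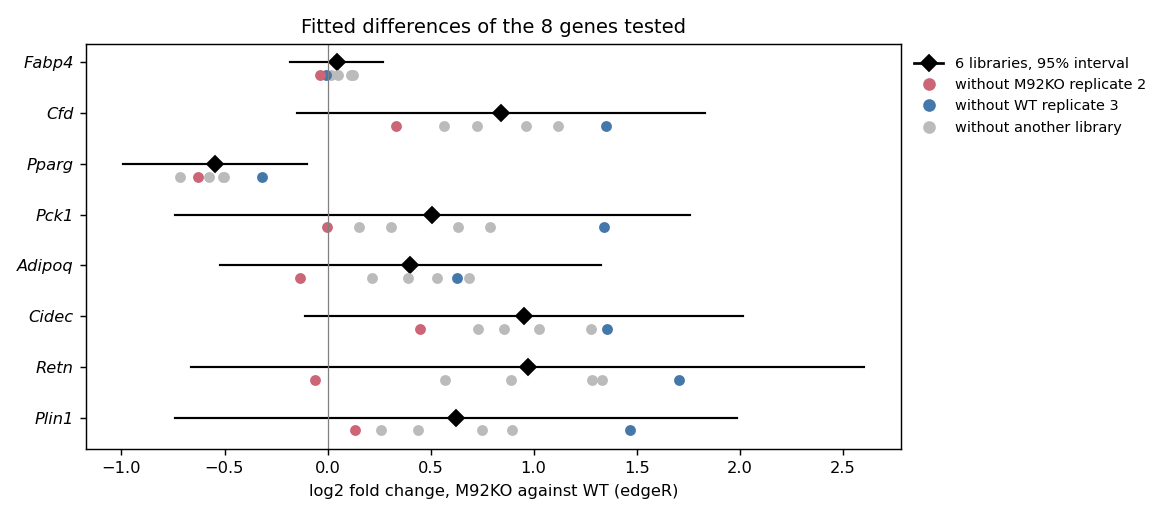
Log2 fold change of M92KO against WT (horizontal axis) for the 8 genes tested, from edgeR with all 6 libraries (black diamonds, 95% intervals as lines) and with each library left out (dots under each line). Without M92KO replicate 2 (red) the values for Adipoq, Retn, Fabp4 and Pck1 move to 0 or below, and without WT replicate 3 (blue) those of Plin1, Cfd, Retn, Cidec and Pck1 exceed 1.

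Some of the members, grouped here by their values, shared an order of the libraries that cut across the genotypes. Adipoq, Plin1, Cfd, Retn, Lep and Cidec were each highest in M92KO replicate 2 and lowest in WT replicate 2, an order that 2.79% of the genes tested had. Fabp4, Pck1 and Pparg did not have both of these ends. Plin1, Cfd and Retn shared the full order of the 6 libraries, which 0.101% of the genes tested had. WT replicate 3 came next to M92KO replicate 2 in 6 of the 9 members, beside 2.0% of the genes tested. Lep entered these counts with 6 counts or fewer in a library. The members were chosen as genes of 1 cell type and share libraries, so that these counts describe the libraries and carry no test.

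The summed level of Adipoq, Plin1, Cfd, Retn and Cidec, a sum formed after their values were seen, was 6.36, 4.19 and 11.6 CPM for WT against 10.5, 21.2 and 7.35 CPM for M92KO libraries. WT replicate 3 exceeded 2 of the 3 M92KO libraries. Most of this sum was Cfd. The sum of all 9 members, most of it Fabp4, was 325, 372 and 326 CPM for WT against 319, 401 and 344 CPM for M92KO libraries, and the highest was 1.26 times the lowest. Fabp4 and Pparg had other orders. Fabp4 was lowest in WT replicate 3, and Pparg was highest in WT replicate 3 and lowest in M92KO replicate 1.

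**Figure D3:**
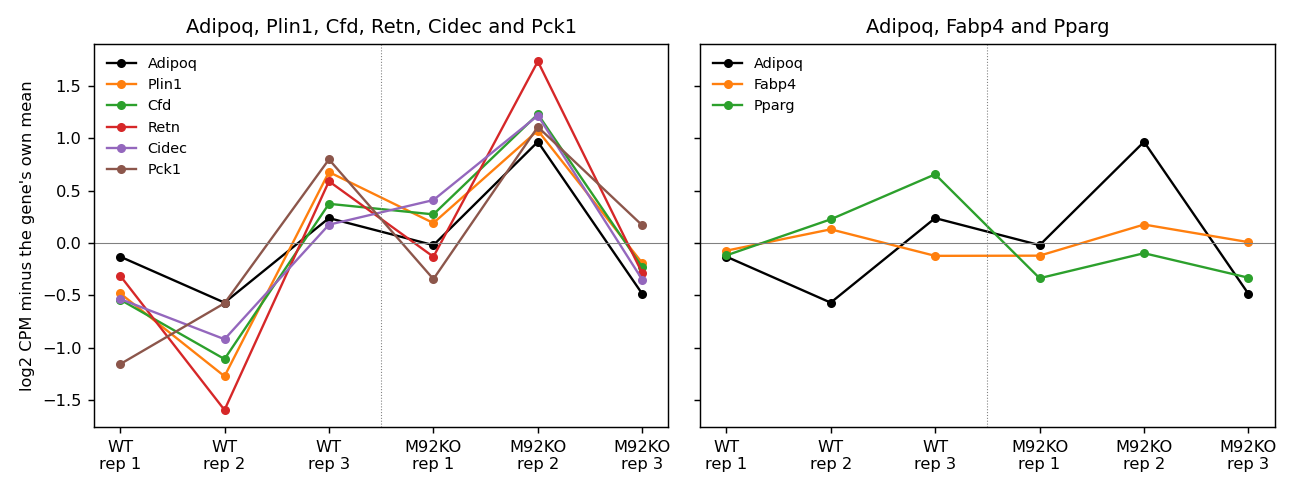
Log2 CPM of single genes minus each gene's own mean over the 6 libraries (vertical axis) by library (horizontal axis), with lines that only join the points of a gene. On the left, Adipoq, Plin1, Cfd, Retn, Cidec and Pck1 peak together in M92KO replicate 2, up to 1.73 for Retn. On the right, Fabp4 stays between -0.12 and 0.18, and Pparg peaks in WT replicate 3 at 0.66.

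The spread between libraries was above the median over all genes tested for all members tested except Fabp4. The biological coefficient of variation that edgeR estimated within groups was 0.328 for Adipoq, 0.366 for Cidec, 0.368 for Cfd, 0.436 for Plin1, 0.457 for Pck1 and 0.572 for Retn, beside a median of 0.117 over all genes tested. Fabp4, at 0.103, was below this median. Pparg, at 0.174, was between them. The trend of this coefficient over all genes had a value of 0.231 at the abundance of Adipoq. This was above the median of 0.117 but below the 0.328 of Adipoq itself. The other members are not set against the trend here.

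The ratio of a member to Adipoq in the same library removes a change that both genes share. Cfd stood at 4.77, 4.42 and 6.91 counts per count of Adipoq in WT and at 7.77, 7.45 and 7.69 in M92KO muscle. All 3 M92KO libraries lay above all 3 WT libraries. The mean was 5.37 ± 1.35 in WT and 7.64 ± 0.169 in M92KO muscle, with an exact permutation p-value of 0.1, the smallest this design allows.

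Cidec showed the same arrangement, at 0.488, 0.50 and 0.638 counts per count of Adipoq in WT and at 0.914, 0.806 and 0.731 in M92KO muscle, with an exact permutation p-value of 0.1. Ratios that did not overlap between the genotypes were found for these 2 of the 7 members with a ratio and in 1.57% of 15787 genes, with M92KO above WT in 0.101%. A gene that does not swing with Adipoq carries the spread of Adipoq into its ratio. This share is therefore no yardstick for genes that do swing with it. The ratios were not among the planned tests. The 7 p-values are not adjusted, and none could pass after adjustment. Both ratios share the counts of Adipoq as their denominator, from 26 to 67 counts in a library, so they are not independent of each other. Cidec itself had 13 to 54 counts in a library, and no interval for counting error was put on either ratio. In M92KO replicate 3, the 95% Poisson intervals were 11.4 to 29.7 counts for Cidec and 17.0 to 38.1 counts for Adipoq. The gap of the Cidec ratios, from 0.638 to 0.731, was not tested against counting error, nor was that of Cfd. Over the 6 libraries, the ratio of Cfd spanned 0.82 on the log2 scale where Cfd itself spanned 2.35, and the ratio of Cidec spanned 0.89 where Cidec itself spanned 2.25.

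The other members had overlapping ratios to Adipoq. Plin1 ranged from 0.154 to 0.448 and Retn from 0.154 to 0.731 counts per count of Adipoq. Pparg ranged from 3.06 to 11.7, with an exact permutation p-value of 0.2. For Fabp4, which ranged from 181 to 534, the ratio spanned 1.54 on the log2 scale where Fabp4 itself spanned 0.30.

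Likeness to Adipoq over all genes was measured as the root mean square distance between centred log2 CPM profiles over the 6 libraries, which counts the size of the swings as well as their order. The 10 nearest genes were Gm15663, Mfsd9, Lgals12, Gm38797, Actg2, A930007A09Rik, Gm10785, Gab3, Gm52533 and Cd209f, at distances of 0.140 to 0.242 beside a median of 0.534 over 15787 genes. Lgals12, a galectin of fat cell droplets, was the only one from a fat cell list, at 17, 8 and 15 counts for the WT libraries against 13, 24 and 10 for those of M92KO. The nearest, Gm15663, had between 11 and 25 counts in a library, and likeness over 6 libraries of such counts is loose. Among the 50 nearest genes were 1 member, Cidec at rank 38, and Fasn at rank 45. Cfd stood at rank 96 and Plin1 at rank 336, whereas Fabp4, Retn, Pck1 and Pparg stood at ranks 4204, 9598, 10319 and 11317.

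Other genes of fat cells were taken from lists that describe their biology. Of 18 further markers of mature fat cells, 14 were tested, with a median log2 fold change of 0.09. At an unadjusted p-value under 0.05, 1 was lower and 0 were higher in M92KO muscle, beside 6.92% and 5.47% of all genes tested. Of the 18 markers, 5 were highest in M92KO replicate 2 and lowest in WT replicate 2, namely Lgals12, Trarg1, Mrap, Cyp2e1 and Rbp4. Of these, Mrap had 3 to 10 counts in a library and was not tested. Cyp2e1, a monooxygenase of liver and fat, was at 1.93, 1.55 and 3.48 CPM in WT and 2.59, 8.49 and 2.20 CPM in M92KO muscle. The marker that was lower was Plin4, a droplet coat protein that muscle fibres also make, at 426, 475 and 629 CPM in WT and 422, 396 and 316 CPM in M92KO muscle. Its groups did not overlap, as was so with M92KO below WT for 9.58% of all genes tested. The log2 fold change of Plin4, -0.43, had an adjusted p-value of 0.336 by edgeR. The sum of the 18 markers, most of it Plin4, was 508 to 700 CPM in WT and 390 to 504 CPM in M92KO muscle, without overlap.

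Droplet and uptake genes are also used by muscle fibres and capillaries. Of 13 genes of droplet coat and lipolysis, 4 had a positive log2 fold change, and 1 was lower at an unadjusted p-value under 0.05, beside 6.92% of all genes tested. This was Plin5, the perilipin of oxidative tissue, at 31.0 ± 2.33 CPM in WT and 24.2 ± 4.76 CPM in M92KO muscle (log2 fold change -0.36), at an adjusted p-value of 0.361 by edgeR. Of 9 genes of fatty acid uptake, 2 were lower at an unadjusted p-value under 0.05, beside 6.92% of all genes tested. These were the transporter gene Slc27a1 with a log2 fold change of -0.41 and Angptl4, an inhibitor of lipoprotein lipase, with -1.27. The smallest adjusted p-value of the 9 was 0.281 by edgeR. The number past the unadjusted threshold was 0 without WT replicate 2 or M92KO replicate 2, and 4 without M92KO replicate 1. Cd36, the main fatty acid transporter, was at 566 ± 18.9 CPM in WT and 567 ± 99.1 CPM in M92KO muscle.

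Of 11 regulators of fat cell formation, 2 had a positive log2 fold change, and the median was -0.15. Cebpb, a factor that acts early in fat cell formation and in many other cells, was the only one with an unadjusted p-value under 0.05. Of all genes tested, 12.4% were under it. It was at 48.2, 57.9 and 92.7 CPM in WT and at 41.6, 31.1 and 42.7 CPM in M92KO muscle, without overlap, and its log2 fold change of -0.79 had an adjusted p-value of 0.255 by edgeR. WT replicate 3 was the highest library for Cebpb as for Pparg. Cebpa, which maintains the mature cell together with Pparg, was at 4.87 ± 0.307 CPM in WT and 4.38 ± 0.496 CPM in M92KO muscle. Of the 9 brown fat genes, Ucp1 and Lhx8 were at 0 in every library. Prdm16, which brown fat cells and other cells use, was at 14.2 ± 0.640 CPM in WT and 10.7 ± 2.21 CPM in M92KO muscle and had an adjusted p-value of 0.328 by edgeR.

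The list of fatty acid and triglyceride synthesis held more genes past the unadjusted threshold than the other fat lists. Of 16 genes, 7 were higher and 3 were lower in M92KO muscle at an unadjusted p-value under 0.05, beside 5.47% and 6.92% of all genes tested, and their median log2 fold change was 0.17. Mlxipl, the glucose-responsive factor ChREBP, had the smallest p-value, at 169 ± 10.9 CPM in WT and 218 ± 2.24 CPM in M92KO muscle (log2 fold change 0.37), at an adjusted p-value of 0.173 by edgeR. The sterol-responsive factor Srebf1 had a log2 fold change of 0.29, and Acly and Gpam, an enzyme of acetyl-CoA supply and one of triglyceride assembly, had values of -0.24 and -0.33. Of the 10 genes, 4 were highest in M92KO replicate 2 and lowest in WT replicate 2 as Adipoq was, namely Fasn, Acaca, Scd2 and Lpin1. Without M92KO replicate 2, 5 of the 16 genes were under 0.05, 2 of them higher. There were 6 without WT replicate 2 or WT replicate 3, and 5 with the processing steps of the study's methods.

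In the 9 lists of markers of other cell types, Ly6a was the only gene that was highest in M92KO replicate 2 and lowest in WT replicate 2. Fibro-adipogenic progenitors are the interstitial cells from which fat cells of muscle arise. Of 12 markers of them, 3 were lower and 1 was higher at an unadjusted p-value under 0.05. Of all genes tested, 6.92% were lower and 5.47% higher at this threshold. The smallest adjusted p-value of the 12 was 0.188 by edgeR. The number past the unadjusted threshold was 3 without WT replicate 1 or M92KO replicate 1, and 6 without M92KO replicate 2. The summed level of the 12 markers was 1933 to 2295 CPM in WT and 1321 to 1822 CPM in M92KO muscle, without overlap. Of single genes tested, 9.58% did not overlap with M92KO below WT. Dcn, a proteoglycan of the matrix, had a log2 fold change of -0.33 and Ly6a, the Sca-1 antigen, one of 0.37. The 12 endothelial markers, which mark cells that also make Fabp4, summed to 1289 to 1378 CPM in WT and 1113 to 1348 CPM in M92KO muscle. Of these 12, 1 had a positive log2 fold change. Tie1 and Flt1 were lower at an unadjusted p-value under 0.05, beside 6.92% of all genes tested. The number past this threshold was 1 without WT replicate 2, WT replicate 3 or M92KO replicate 3, 5 without WT replicate 1 and 7 without M92KO replicate 2.

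The 12 macrophage markers summed to 129 to 142 CPM in WT and 98.2 to 141 CPM in M92KO muscle. Of these 12, 2 had a positive log2 fold change. Ptprc was lower at an unadjusted p-value under 0.05, beside 6.92% of all genes tested. The number past this threshold was 0 without WT replicate 3, 2 without M92KO replicate 1 and 3 without M92KO replicate 3. The 10 lymphocyte markers summed to 2.42 to 3.75 CPM in WT and 1.82 to 2.39 CPM in M92KO muscle, without overlap. Of single genes tested, 9.58% did not overlap with M92KO below WT. Of the 10 lymphocyte markers, 6 were tested, with a median log2 fold change of -0.49 and 0 positive values. Of these 6, 0 were under 0.05 before adjustment, beside 12.4% of all genes tested. The 5 red cell genes were at 214, 223 and 74.0 CPM in WT and at 330, 143 and 336 CPM in M92KO muscle, lowest in the 2 libraries where the sum of Adipoq, Plin1, Cfd, Retn and Cidec was highest. Of the 8 Schwann cell genes, 4 were lower at an unadjusted p-value under 0.05, as were 4 of the 7 tendon genes, beside 6.92% of all genes tested. The number of Schwann cell genes past this threshold in either direction was 1 without WT replicate 1 or WT replicate 2 and with the processing steps of the study's methods, and 2 without any 1 of the M92KO libraries. That of tendon genes was 2 without WT replicate 1, WT replicate 2, M92KO replicate 2 or M92KO replicate 3, and with DESeq2. Among the tendon genes, Kera had a log2 fold change of -1.62 and Tnmd one of -0.91. Whether the amount of attached fat, tendon or blood differed between the muscles was not tested.

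**Figure D4:**
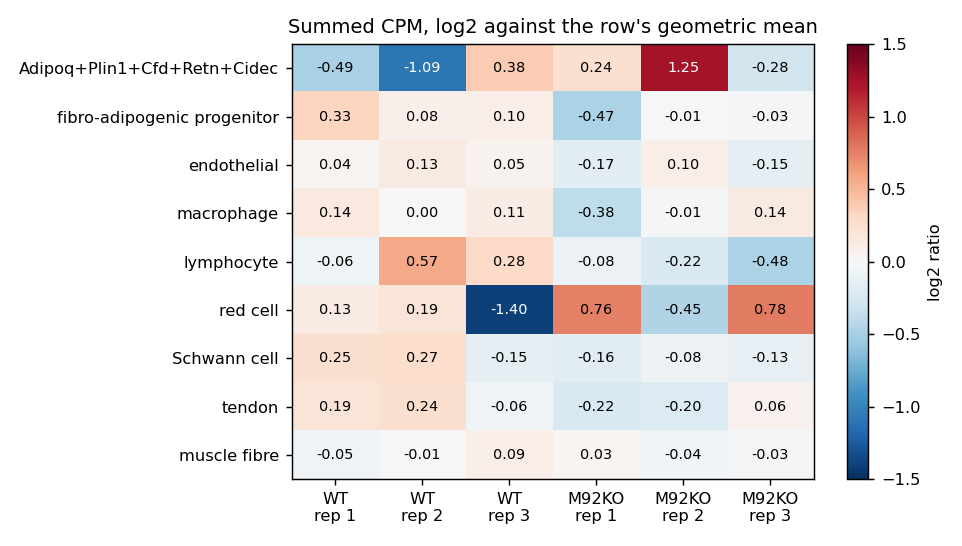
Summed CPM of Adipoq, Plin1, Cfd, Retn and Cidec, chosen after their values were seen, and of 8 lists of cell type markers, as log2 of each library's sum over the geometric mean of its row (numbers and colours). The row of these 5 genes runs from -1.09 in WT replicate 2 to 1.25 in M92KO replicate 2, the red cell row is lowest in WT replicate 3 at -1.40, and the muscle fibre row stays between -0.05 and 0.09.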

How the data were processed

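Gas muscle RNA of 3 WT and 3 M92KO libraries was measured by RNA-seq (SMARTer kit per the labels). The authors deposited raw counts of reads per gene symbol, without normalization, and the labels name the builds GRCm38 and mm10. The aligner, the counting program and its use of strand are not given in the sources used here. All 6 columns of the table were used.

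The 9 members and all lists were chosen with earlier results of these data known. Genes named are the 9 members, up to 4 genes with the smallest unadjusted p-value in each list, defining markers at 0 and the 10 genes nearest to Adipoq. Trarg1, Mrap, Rbp4, Cd36, Acta1, Ckm and the genes of fatty acid synthesis beyond the first 4 were named after their values were seen.

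Counts were filtered with filterByExpr (minimum count 10, minimum total 15), normalised with TMM and fitted with the quasi-likelihood test of edgeR 4.0.16 in R 4.3.3, with genotype as the only term. Benjamini-Hochberg adjustment ran over the 15788 genes. Exact two-sided permutation tests used log2(CPM + 0.01), profiles a prior count of 2. Alternatives were DESeq2 1.42.0 (Wald test, size factors), other filters, quantile normalization with log2(x + 1) and limma 3.58.1 as in the study's methods, the replicate number as a block and each library left out. The fit was tested on simulated data. Sequences and figures were read and drawn with Python 3.11.15, pandas 2.3.3 and matplotlib 3.10.9. Positions and exon lengths are those of GENCODE M21 on GRCm38. No exon of a member overlaps another gene.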

Additional observations from a re-analysis of the deposited data

How the results depend on the processing

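No gene of the 9 passed an adjusted p-value of 0.05 by edgeR, and counts of 0 to 67 in Adipoq, Plin1, Retn, Cidec and Lep limit what 3 libraries a group can show. The number of genes with an adjusted p-value under 0.05 was 0 with edgeR, 0 with DESeq2 size factors, 312 with DESeq2's Wald test, 6 without a filter on low counts, 0 with at least 10 counts in every library and 42 with the steps of the study's methods. With each library left out it ran from 0 to 401, the highest without M92KO replicate 1. At an unadjusted p-value under 0.05, the number was 1955, with 1222 without WT replicate 2 and 2984 without M92KO replicate 1 as the extremes. Of the fat cell genes, 1 was under 0.05 before adjustment. There were 3 without a filter (Cfd, Cidec and Pparg), 0 with the study's steps and, with a library left out, from 0 (without M92KO replicate 1) to 4 (without WT replicate 3, namely Plin1, Cfd, Cidec and Pck1).

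The median log2 fold change of the fat cell genes was 0.57. It ran from 0.45 with at least 10 counts in every library, where Plin1 and Retn drop out, to 0.77 with the study's steps, and from -0.021 to 1.34 with a library left out. The sign turned for 4 genes with a library left out. Their ranges were -0.14 to 0.69 for Adipoq, -0.062 to 1.71 for Retn, -0.0048 to 1.34 for Pck1 and -0.038 to 0.12 for Fabp4, with -0.0073 for Fabp4 without WT replicate 3. The lowest of each came without M92KO replicate 2. Plin1, Cfd, Cidec and Pparg kept their sign in every alternative run. For the other lists, the number under 0.05 before adjustment also moved with a library left out, from 0 to 3 for the fat cell markers, 0 to 4 for droplet genes, 0 to 4 for uptake genes, 5 to 11 for fatty acid synthesis, 1 to 7 for endothelial markers, 0 to 3 for macrophage markers, 1 to 5 for Schwann cell genes and 2 to 4 for tendon genes. The cause was not tested.

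The labels number the replicates 1 to 3 in both genotypes. Deviations of same-numbered libraries from their group means correlated at 0.0806, 0.0376 and 0.0151. Those of libraries with different numbers correlated at -0.0686 to 0.0365. For each M92KO library, the WT library of the same number had the highest value. All values were small and the labels state no pairing, so the numbers were not taken as pairs in the main fit. With the replicate number as a block, the number of genes past an adjusted p-value of 0.05 was 2, the median of the fat cell genes was 0.64, and Pparg was again the only one under 0.05 before adjustment, at a log2 fold change of -0.52.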
